A study of Mus musculus with 6 samples.

Results

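The mRNA levels of amino acid transporter genes were compared in Lewis cells, a mouse lung carcinoma line, that were kept for 24 hours with SD70, a small-molecule inhibitor of the histone demethylase KDM4C, or with DMSO, the solvent control. There were 3 samples per group, and the labels give the same cell line, culture medium and time for both, so the groups differed by label in the compound alone. No dose of SD70 is given for the RNA-seq experiment in the sources used here, and the labels do not say whether the samples of a group came from separate cultures. The paper's methods say of its experiments in general that they were repeated independently, without naming these samples. If the samples were not separate cultures, the p-values measure only the spread between them, which may be technical. The genes were taken by symbol from 7 families of solute carriers (SLC), namely Slc1a, Slc3a, Slc6a, Slc7a, Slc36a, Slc38a and Slc43a, each followed by a number. Of 16081 genes listed in each sample, 49 had such a symbol. They were 6 of Slc1, 2 of Slc3, 15 of Slc6, 12 of Slc7, 2 of Slc36, 9 of Slc38 and 3 of Slc43. Of these, 47 are carriers or their subunits, while Slc7a6os and Slc6a19os are neighbouring genes on the opposite strand that carry the family's symbol. The families also hold carriers of other small molecules, such as creatine, taurine, serotonin and nucleobases.

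Amino acids do not cross a lipid bilayer unaided, and cells take them up through secondary active transporters and exchangers. Sodium-coupled carriers concentrate amino acids such as glutamine and alanine in the cell. Exchangers then trade such amino acids for essential ones such as leucine, or trade glutamate for cystine, the precursor of glutathione. Tumour cells are known for high levels of several of these carriers, and ATF4, a transcription factor that responds to amino acid shortage, is known to act on many of these genes.

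The 6 libraries held 15276744 to 17060424 counts each. The labels call the cells lung adenocarcinoma and the treated cells Lewis cells, while the extraction protocol speaks of tissue. The cell type was checked with marker genes. Vim and Krt8 were high. Epcam, Cdh1 and Krt19 of the epithelial, Sftpc of the lung epithelial and Cdh2 of the mesenchymal markers were at or near 0 in every sample (at most 0.09 FPKM, the level scaled by gene length and depth). The summed FPKM of the 5 epithelial markers, nearly all of it Krt8, was 148 to 155 with DMSO and 94.5 to 106 with SD70. Krt18 was itself called lower (0.428-fold, log2 fold change -1.22 ± 0.176, adjusted p = 2.97e-07). The sums for the 3 mesenchymal markers were 2436 to 2723 with DMSO and 1736 to 1897 with SD70, and for the 3 fibroblast markers 52.0 to 55.0 and 38.9 to 42.3. Among 7 immune markers, Ptprc was at 0 with DMSO and at most 0.03 FPKM with SD70, and the sum of the 5 that were found was 14.9 to 15.4 with DMSO and 10.4 to 12.3 with SD70, most of it Cd68. Within the immune and fibroblast sums single markers differed. Lyz2 was higher in every SD70 sample (log2 fold change 0.79 ± 0.307, adjusted p = 0.0256), as was Lum (log2 fold change 0.46 ± 0.230, adjusted p = 0.0827), both not past the threshold, and Pdgfra fell to just short of the 2-fold threshold (from 1753 ± 50.8 to 877 ± 44.6 normalized counts, SD, n = 3 each, edgeR adjusted p = 9.33e-17). Of 4 lung epithelial markers 2 were found, Sftpc and Napsa, with sums, nearly all Napsa, of 3.05 to 3.89 under DMSO and 2.95 to 4.05 under SD70, and the 3 endothelial markers gave 0.880 to 1.07 and 0.960 to 1.16. The part of these markers in the results was not tested.

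SD70-treated cells held more mRNA of 12 of the amino acid transporter genes and less of 1, Slc7a15, whose call was lost in 10 of 14 alternatives, among them each that left out a sample, DESeq2 and limma. Other carriers of the same kinds of substrate, such as Slc7a3, Slc7a6, Slc7a7, Slc38a6 and Slc43a2, were not called. Slc1a4, Slc6a9, Slc7a1, Slc7a11 and Slc7a5 rose by between 3.37-fold and 6.13-fold, and Slc3a2, the partner chain of Slc7a5 and Slc7a11, with Slc38a1, Slc38a7, Slc38a2 and Slc1a5 rose by between 2.08-fold and 2.82-fold. The taurine and creatine carriers and the other tested Slc38 members were not called higher. Counts were normalized to a common effective library size, the mean of the 6 samples, and a gene was called when edgeR's quasi-likelihood test gave an adjusted p under 0.01 together with a change of 2-fold or more. Of the 49 genes, 21 had too few counts for the test, at most 13.91 in any sample, and 12 of the 21 had at most 2. Of the 28 tested members, 12 were called higher and 1 was called lower. Over all 11552 genes tested, 3.29% were called higher and 2.61% lower. Slc1a1 was tested only because of its SD70 samples and Slc7a15 only because of its DMSO samples, so both had to differ, and the count is better read among genes with a mean of at least 100 normalized counts over the 6 samples. There, 10 of 21 members were called higher and 0 lower, against 2.60% and 1.30% of all 9623 such genes. The count of 0 held for DESeq2 and limma too, and 0 of the 21 were at least 2-fold lower with an unadjusted p under 0.05. Without a minimum on the fold change, 13 of the 21 were past an adjusted p of 0.01 higher and 3 lower, against 28.5% and 25.4% of all such genes.

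**Figure D1:**
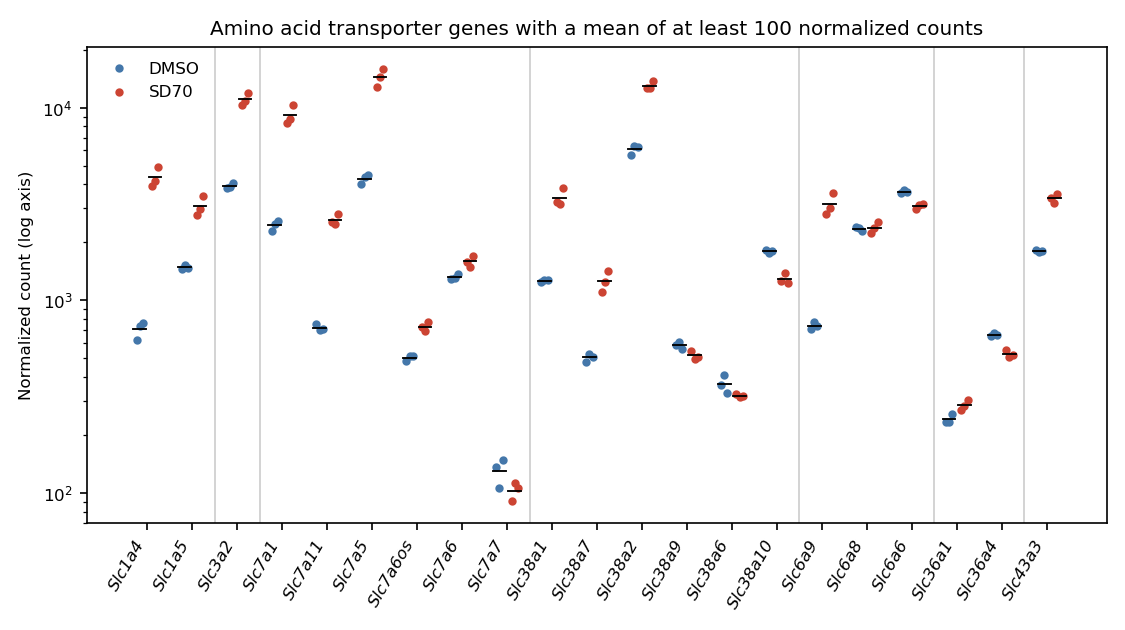
Normalized counts (log axis) of the 21 members with a mean of at least 100, by SLC family, with a point for each of 3 DMSO (blue) and 3 SD70 (red) samples and a line at the group mean. The groups are apart in 14 genes with SD70 higher and in 5 with SD70 lower, and overlap in Slc6a8 and Slc7a7.

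In 14 of these 21 genes every SD70 sample lay above every DMSO sample, in 5 every SD70 sample lay below, and in 2 the groups overlapped. Of all 28 tested members, 16 lay above in this way and 8 below, against 32.8% and 31.6% of all genes tested. These include Slc1a1 and Slc7a15, each tested through 1 group alone. The share among all genes with a mean of at least 100 was not counted. A two-sided exact permutation test gives p = 0.1 for each separated gene, the smallest that 3 samples against 3 allow. SD70 sample 3 was the highest SD70 sample in 12 of the 12 members called higher, and in 72.6% of all genes called higher. Without it, the log2 fold changes of the 12 ranged from 0.95 to 2.51, and Slc1a5 alone of the 12 fell under 2-fold. In bulk samples, a change in RNA per cell and a change in the number of cells that express a gene cannot be told apart.

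Promoter windows from 250 bases before to 50 after a transcript's start were taken from a table made from RefSeq (GRCm38.p6), which is not complete and held 37 of the 49 members, 9 of them among the 12 called higher. The promoters of Slc1a5, Slc38a1 and Slc7a5 were not analysed here. The windows were searched on both strands for TGATGNAA, the core of the C/EBP-ATF composite element that ATF4 is known to bind. Of the 9 called genes, Slc7a11 and Slc1a4 held it, and of the other members Slc7a7, which was not called. These are 3 of 37 member genes, and the motif was in a window of 4.51% of all 27025 genes in the table. The windows below run from 150 bases before the start to 30 after it, on the gene's strand, 5′ to 3′, with the motif or its reverse complement in capitals. They are shown because they hold this motif, and they lie on the minus strand at chr3:50443584-50443763, chr11:20332684-20332863 and chr14:54417915-54418094.
Slc7a11: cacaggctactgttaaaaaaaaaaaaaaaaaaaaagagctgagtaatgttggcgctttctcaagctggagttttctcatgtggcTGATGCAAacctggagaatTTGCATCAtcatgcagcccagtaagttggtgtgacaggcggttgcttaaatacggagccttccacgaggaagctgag
Slc1a4: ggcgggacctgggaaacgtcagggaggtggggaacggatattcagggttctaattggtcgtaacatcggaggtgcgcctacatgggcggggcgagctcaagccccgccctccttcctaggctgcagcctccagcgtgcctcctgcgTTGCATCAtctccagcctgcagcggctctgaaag
Slc7a7: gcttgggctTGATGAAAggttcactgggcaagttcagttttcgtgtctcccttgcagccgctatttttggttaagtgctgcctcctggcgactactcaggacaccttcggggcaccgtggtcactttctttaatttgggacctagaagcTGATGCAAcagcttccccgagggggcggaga

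The Slc7a11 window held the motif 2 times, with 1 match on each strand, from base -66 to -59 and from base -47 to -40 relative to the start, which for this transcript lies inside the annotated gene. In Slc1a4 the match ran across the start, from base -4 to base 4. In Slc7a7 the matches ran from base -141 to -134 and from base -1 to 7, so the motif occurred also in a gene that was not called. TGACNNNGC, the core of the antioxidant response element, was in windows of Slc6a9, Slc7a1 and Slc38a2 among the 9 called genes, and of Slc43a1, Slc6a13, Slc7a6 and Slc36a1 among the others. These are 7 of 37 member genes, against 13.99% of all genes in the table. The cAMP response element TGACGTCA was in 0 of the 9, in 1 of 37 member genes (Slc38a6) and in 2.03% of all genes in the table. TGACNNNGC and TGACGTCA begin with the same letters TGAC. A match describes the sequence and is not a measured binding site.

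Slc3a2 (NCBI Gene 17254, chromosome 19, 8706882 to 8723369) encodes the heavy chain CD98, a glycoprotein that carries a group of Slc7 light chains to the plasma membrane. It had 3816, 3862 and 4070.0 normalized counts in DMSO and 10297, 10899 and 11955 in SD70 samples. Every SD70 sample was more than 2-fold above every DMSO sample, and the gene rose 2.82-fold (log2 fold change 1.50 ± 0.0538, adjusted p = 2.13e-22). Log2 fold changes of single genes are given ± their standard error, with adjusted p-values, from edgeR's quasi-likelihood test. Slc3a2 was the only tested member with counts that were not whole, while those of the other 27 were whole in all 6 samples. The other heavy chain, Slc3a1, which serves the cystine carrier of the kidney, had at most 4.28 counts in a sample and was not tested.

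Of the light chains that pair with Slc3a2, Slc7a5 encodes LAT1, which imports leucine and other large neutral amino acids in exchange for glutamine. Slc7a5 (NCBI Gene 20539, chromosome 8, 121881146 to 121907686) had 4008, 4351 and 4455 normalized counts under DMSO and 12792, 14499.7 and 15953 under SD70. The groups were far apart, and it rose 3.37-fold (log2 fold change 1.75 ± 0.0672, adjusted p = 1.92e-14). Slc7a11 (NCBI Gene 26570, chromosome 3, 50364936 to 50499087) encodes xCT, which takes up cystine in exchange for glutamate. It had 754, 700.2 and 712 normalized counts under DMSO and 2544, 2476 and 2806 under SD70, with no overlap, a rise of 3.61-fold (log2 fold change 1.85 ± 0.0595, adjusted p = 7.23e-24). The other light chains did not move in this way. Slc7a6, which exchanges cationic for neutral amino acids, went from 1324 ± 47.3 to 1595 ± 105 normalized counts (SD, n = 3 each), past the adjusted p but under 2-fold (log2 fold change 0.27 ± 0.0572, adjusted p = 1.39e-04). Slc7a7, its paralogue, had 135, 106 and 148 normalized counts under DMSO and 90.3, 112 and 106 under SD70, and these overlapped (log2 fold change -0.34 ± 0.138, adjusted p = 0.0345). Slc7a8, which encodes the neutral exchanger LAT2, had at most 3 counts in a sample and was not tested.

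Levels of different genes were compared as FPKM, which is scaled by gene length. Per length, Slc7a5 was the main light chain, with 78.1 ± 4.14 FPKM (SD, n = 3) under DMSO and 258 ± 28.7 (SD, n = 3) under SD70. Slc3a2 itself had 110.0 ± 1.77 and 311 ± 23.4 FPKM (SD, n = 3 each). The summed FPKM of the 5 listed light chains that pair with Slc3a2 (Slc7a5, Slc7a6, Slc7a7, Slc7a8 and Slc7a11), divided by that of Slc3a2, was 0.966, 1.00 and 1.02 under DMSO and 0.943, 0.996 and 0.999 under SD70. The ranges of this ratio overlapped while both of its terms rose. Within it, the FPKM ratio of Slc7a5 to Slc3a2 was 0.678, 0.726 and 0.725 with DMSO and 0.784, 0.849 and 0.848 with SD70, and that of Slc7a11 to Slc3a2 was 0.0474, 0.0436 and 0.0430 and 0.0580, 0.0544 and 0.0562. That of Slc7a6 to Slc3a2 was 0.202, 0.204 and 0.209 with DMSO and 0.0906, 0.0816 and 0.0841 with SD70. The groups were apart for these 3 ratios and for 8 of the 9 gene pairs compared in all (two-sided exact permutation test, p = 0.1 each and 0.113 after Benjamini-Hochberg adjustment over 9 ratios, where p = 0.1 is the smallest possible). Slc7a11 against Slc7a5 gave 0.0699, 0.0600 and 0.0593 with DMSO and 0.0740, 0.0640 and 0.0663 with SD70, which overlapped (exact permutation test, p = 0.300). These gene pairs were chosen with the values of the members known.

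**Figure D2:**
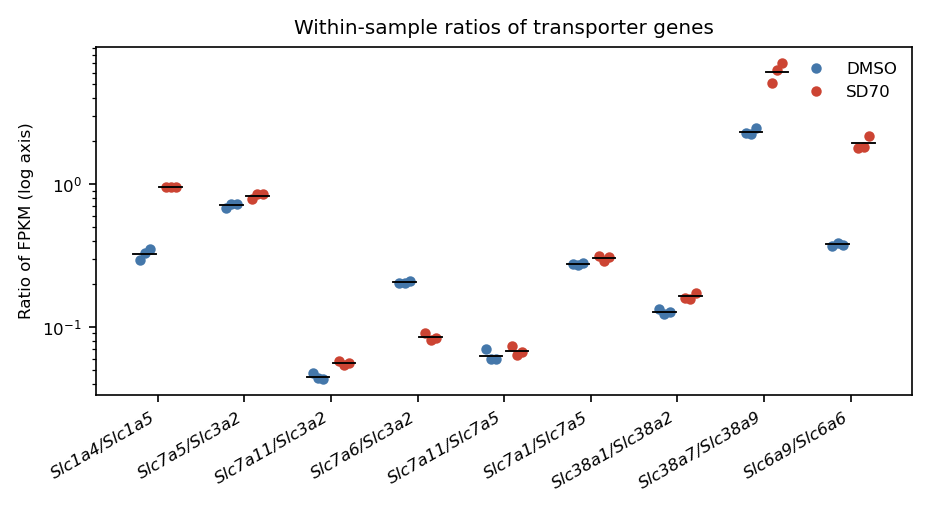
Ratio of the FPKM values of 2 transporter genes within each sample (log axis), with a point for each DMSO (blue) and SD70 (red) sample and a line at the group mean. Slc1a4/Slc1a5 and Slc6a9/Slc6a6 are higher in every SD70 sample, Slc7a6/Slc3a2 is lower, and Slc7a11/Slc7a5 overlaps.

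The cationic amino acid transporters form the other branch of Slc7 and need no heavy chain. Slc7a1 (NCBI Gene 11987, chromosome 5, 148327410 to 148399904), the CAT1 carrier of arginine and lysine, had 2291, 2481 and 2591 normalized counts under DMSO and 8373, 8696 and 10379 under SD70. The groups did not overlap, and the gene rose 3.73-fold (log2 fold change 1.90 ± 0.0729, adjusted p = 4.04e-13). Its FPKM ratio to Slc7a5 was 0.274, 0.273 and 0.280 with DMSO and 0.314, 0.288 and 0.311 with SD70. Slc7a3, a further cationic carrier, was barely detected. It had 7, 9 and 11 counts under DMSO and 10, 11 and 9 under SD70, and did not pass the test (log2 fold change 0.24 ± 0.385, adjusted p = 0.606). Slc7a4 had 27, 15 and 20 counts under DMSO and 10, 13 and 13 under SD70 and was not past the threshold either (log2 fold change -0.68 ± 0.318, adjusted p = 0.0622). Slc7a15, which lies outside the cationic branch of Slc7, was the only member called lower. It had 22, 18 and 18 counts under DMSO and 8, 9 and 9 under SD70 (log2 fold change -1.05 ± 0.333, adjusted p = 0.00684). Leaving out any 1 of the 6 samples ended this call, with adjusted p from 0.0113 to 0.0360. Slc7a13, also outside the cationic branch, and Slc7a14 were not tested, with at most 1 and 13.91 counts in a sample.

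In the Slc1 family, all 4 tested members were called higher, against 3.29% of all genes tested. Slc1a1 is among the 4 and was tested only through its SD70 samples. With a mean of at least 100 normalized counts, 2 of 2 were called higher, against 2.60% of all such genes. Slc1a4 (NCBI Gene 55963, chromosome 11, 20302180 to 20332713) encodes ASCT1, an exchanger of alanine, serine, cysteine and threonine. It had 625, 739 and 761 normalized counts under DMSO and 3919, 4179 and 4945 under SD70, and its rise of 6.13-fold was the largest of the members tested (log2 fold change 2.62 ± 0.10, adjusted p = 2.88e-09), rank 35 of the 11552 genes by log2 fold change. Slc1a5 (NCBI Gene 20514, chromosome 7, 16781334 to 16798274) encodes ASCT2, a neutral amino acid exchanger known for glutamine uptake. It had 1452, 1519 and 1474 normalized counts under DMSO and 2789, 2974 and 3496 under SD70, and rose 2.08-fold (log2 fold change 1.06 ± 0.0649, adjusted p = 5.66e-13). Without SD70 sample 3 its log2 fold change was 0.95 (adjusted p = 6.37e-17), under the 2-fold threshold. Slc1a4 rose more than Slc1a5, and their FPKM ratio was 0.292, 0.331 and 0.352 with DMSO and 0.955, 0.956 and 0.960 with SD70 (p = 0.1 in a two-sided exact permutation test, the lowest value that 3 against 3 can give). Slc1a4 made up between 21.9% and 25.4% of the family's summed FPKM under DMSO and 47.8% under SD70, and Slc1a5 made up between 72.2% and 74.9% and between 49.8% and 50.1%.

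The remaining Slc1 members are glutamate transporters and were expressed at low levels. Slc1a7, known from the retina, had 59, 42 and 49 counts under DMSO and 106, 124 and 144 under SD70 (log2 fold change 1.41 ± 0.165, adjusted p = 4.33e-09). Slc1a1, a neuronal and epithelial glutamate carrier, had 4, 7 and 2 counts under DMSO and 14, 16 and 18 under SD70 (log2 fold change 1.95 ± 0.425, adjusted p = 1.81e-04). The SD70 samples lay above the DMSO samples in both, and on log2(FPKM + 1) both were under 2-fold. Slc1a2 and Slc1a3, the glial glutamate transporters, had at most 3 and 7 counts in a sample and were not tested.

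The Slc38 family split into members that rose and members that did not. Slc38a2 (NCBI Gene 67760, chromosome 15, 96687392 to 96699728) encodes SNAT2, a sodium-coupled carrier of small neutral amino acids that is known to be induced when amino acids are scarce. It had 5691, 6307 and 6242 normalized counts under DMSO and 12655, 12628 and 13684 under SD70, and rose 2.14-fold (log2 fold change 1.09 ± 0.0516, adjusted p = 3.88e-19). Tested against a change of 2-fold with edgeR's glmTreat, it was not past the threshold (adjusted p = 0.330), and neither was Slc1a5, Slc1a7 or Slc1a1. Slc38a1 (NCBI Gene 105727, chromosome 15, 96571418 to 96643438) encodes SNAT1, which shares this mode of transport and takes up glutamine. It had 1250.2, 1271 and 1275 normalized counts under DMSO and 3228, 3179 and 3816 under SD70, and rose 2.69-fold (log2 fold change 1.43 ± 0.0603, adjusted p = 2.88e-19). Per length Slc38a2 stayed the higher of the pair, with 174 ± 8.19 FPKM with SD70 against 28.5 ± 2.84 (SD, n = 3 each). The FPKM ratio of Slc38a1 to Slc38a2 was 0.134, 0.124 and 0.126 with DMSO and 0.160, 0.158 and 0.173 with SD70.

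Slc38a7 (NCBI Gene 234595, chromosome 8, 95835920 to 95853577) encodes SNAT7, which exports glutamine and asparagine from lysosomes. It had 479, 526 and 510.2 normalized counts under DMSO and 1099, 1247 and 1417 under SD70, with no overlap, and rose 2.48-fold (log2 fold change 1.31 ± 0.0761, adjusted p = 6.14e-14). Slc38a9, the lysosomal arginine sensor upstream of mTORC1, had 584, 609 and 558 normalized counts under DMSO and 546, 499 and 507 under SD70 and was not past the threshold (log2 fold change -0.17 ± 0.0703, adjusted p = 0.0323). The FPKM ratio of these lysosomal genes, Slc38a7 over Slc38a9, was 2.29, 2.24 and 2.45 with DMSO and 5.10, 6.25 and 7.07 with SD70, apart in every sample. Slc38a10 fell from 1798 ± 24.9 to 1293 ± 77.6 normalized counts (SD, n = 3 each), under 2-fold (log2 fold change -0.47 ± 0.0554, adjusted p = 4.41e-09). Slc38a4, a carrier best known from liver, had 46, 39 and 49 counts under DMSO and 26, 27 and 23 under SD70 (log2 fold change -0.72 ± 0.217, adjusted p = 0.00464), and it lost the adjusted p of 0.01 in 6 of 13 alternatives, 5 of which left out a sample. Slc38a6 had a log2 fold change of -0.20 (adjusted p = 0.0388). Slc38a3 and Slc38a8 had at most 3 counts in a sample and were not tested.

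**Figure D3:**
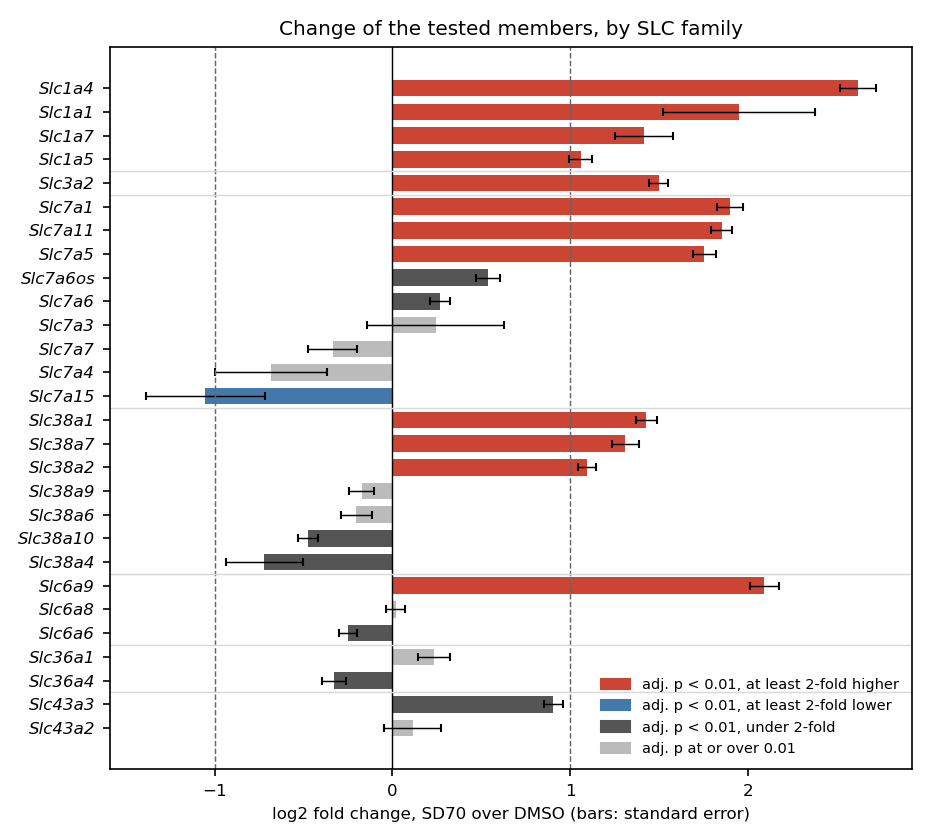
Log2 fold change of SD70 over DMSO for the 28 tested members, grouped by SLC family, with standard errors from edgeR's quasi-likelihood fit and dashed lines at 2-fold. Red bars are the 12 genes called higher, the blue bar is Slc7a15, the 1 gene called lower, dark grey bars are past the adjusted p but under 2-fold, and light grey bars are not past it.

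Slc6 holds the sodium- and chloride-coupled carriers of neurotransmitters, osmolytes and amino acids, and 3 of its 15 members were tested. Slc6a9 (NCBI Gene 14664, chromosome 4, 117835258 to 117869305) encodes the glycine transporter GLYT1. It had 706, 771 and 737 normalized counts under DMSO and 2808, 3022 and 3617 under SD70, and its rise of 4.26-fold came next after that of Slc1a4 (log2 fold change 2.09 ± 0.0804, adjusted p = 4.05e-13). The taurine transporter Slc6a6 fell slightly, from 3666 ± 80.7 to 3083 ± 99.4 normalized counts (SD, n = 3 each), and every SD70 sample lay below every DMSO sample (log2 fold change -0.25 ± 0.0493, adjusted p = 4.79e-05). The creatine transporter Slc6a8 had 2409, 2368 and 2281 normalized counts under DMSO and 2249, 2367 and 2536 under SD70. Its groups overlapped, its log2 fold change was 0.02 (adjusted p = 0.778), and the sign turned in 4 of 15 alternatives, over a range of -0.034 to 0.060. Slc6a9 over Slc6a6 in FPKM was 0.370, 0.388 and 0.376 with DMSO and 1.79, 1.83 and 2.17 with SD70, so the order of the genes turned. The other 12 Slc6 members, among them the serotonin, noradrenaline and GABA transporters (Slc6a4, Slc6a2 and Slc6a13), the glycine transporter Slc6a5 and the kidney and gut carriers Slc6a18, Slc6a19, Slc6a20a and Slc6a20b, had at most 12 counts in a sample and were not tested.

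Slc36 holds carriers of amino acids, and Slc43 holds facilitators of large neutral amino acids and nucleobases. Slc36a4 fell from 664 ± 12.6 to 528 ± 24.3 normalized counts (SD, n = 3 each), under 2-fold (log2 fold change -0.33 ± 0.0676, adjusted p = 8.49e-05). Slc36a1 had 234, 233 and 258 normalized counts under DMSO and 269.9, 282 and 303 under SD70, which did not overlap, and was not past the adjusted p (log2 fold change 0.24 ± 0.0905, adjusted p = 0.0246). Slc43a3, known as a carrier of purine nucleobases, had 1821, 1787 and 1806 normalized counts under DMSO and 3389, 3185 and 3571 under SD70, a 1.87-fold rise that stayed just under the 2-fold threshold (log2 fold change 0.91 ± 0.0523, adjusted p = 1.16e-16). Slc43a2, a carrier of large neutral amino acids, was low, with 61, 72 and 68 counts under DMSO and 67, 78 and 59 under SD70, and its groups overlapped (adjusted p = 0.557). Slc43a1 had 1 count in 1 sample. Slc7a6os, which lies next to Slc7a6 without overlap on GRCm38.p6 and is no carrier, had 481, 513 and 511 normalized counts under DMSO and 729.6, 689 and 769 under SD70 (log2 fold change 0.54 ± 0.0684, adjusted p = 2.57e-08), and Slc6a19os had 1 count in 1 sample.

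The summed FPKM of the 47 carriers was 574 to 596 under DMSO and 1236 to 1448 under SD70, a ratio of means of 2.26. The members took 0.212% to 0.223% of all counts with DMSO and 0.444% to 0.518% with SD70. By family, the ratio of means of summed FPKM was 3.00 for Slc1, 2.89 for Slc7, 2.83 for Slc3, 1.82 for Slc43, 1.77 for Slc38, 1.42 for Slc6 and 0.887 for Slc36. A few genes set these sums. Slc3a2, Slc7a5 and Slc38a2 together made up 45.3% to 46.7% of the carriers' FPKM with DMSO and 55.6% to 56.5% with SD70. The share of Slc38a2 was between 13.6% and 14.6% under DMSO and between 12.7% and 13.7% under SD70, which overlapped, so the higher joint share came from Slc3a2 (between 18.4% and 18.9% under DMSO and between 23.2% and 23.5% under SD70) and Slc7a5. The share of Slc7a5 was between 12.8% and 13.6% under DMSO and between 18.5% and 20.0% under SD70. That of Slc1a4 was between 1.77% and 2.07% under DMSO and between 5.03% and 5.43% under SD70. The share of Slc6a6 was lower under SD70, at between 2.22% and 2.46% against between 6.44% and 6.60%. These sums and shares are descriptions of the 6 samples, without a test.

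**Figure D4:**
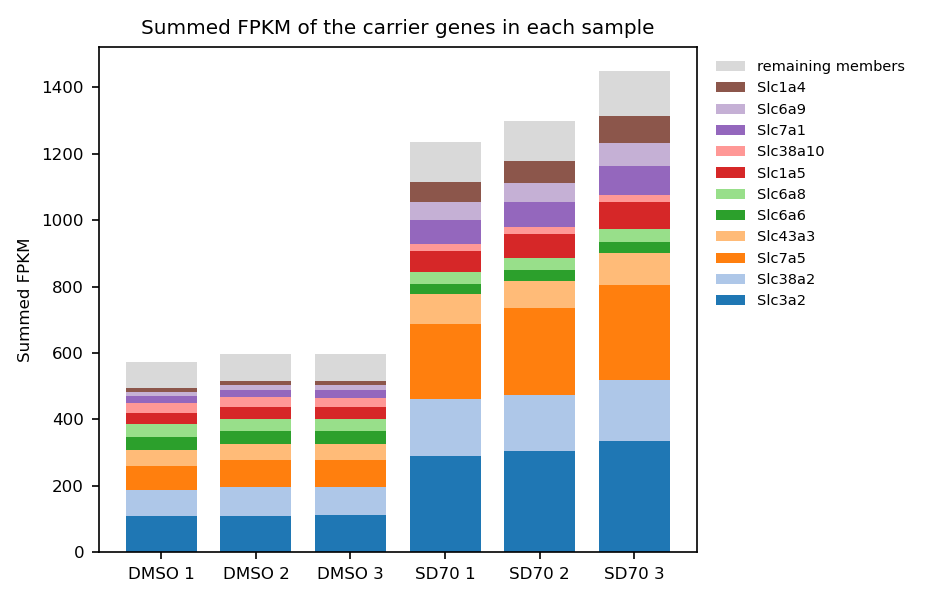
Summed FPKM of the 47 carrier genes in each of the 6 samples, stacked by gene, with the genes under 4% of the sum in both groups joined in grey. The bars of the SD70 samples reach 1236 to 1448 against 574 to 596 for DMSO, and Slc3a2, Slc7a5 and Slc38a2 are the main parts of every bar.

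Carriers of amino acids and of some other small molecules outside these families, with a few partner proteins of carriers, were taken from a list of 33 symbols. Of these 27 were found, 2 of them partners, and 18 had enough counts, 1 of them the partner Arl6ip5 (log2 fold change -0.03 ± 0.0594, adjusted p = 0.711). Among the 18 genes, edgeR, DESeq2 and limma each called 0 higher and 0 lower, where edgeR called 3.29% and 2.61% of all genes tested, a share that in 18 genes comes to less than 1 gene in either direction. With an unadjusted p under 0.05, 6 were higher and 6 lower, 0 of them by 2-fold, and log2 fold changes ranged from -0.35 to 0.61. Past an adjusted p of 0.01 without a fold minimum, 4 of 18 were higher and 3 lower, against 25.8% and 24.2% of all genes tested. Those higher were the mitochondrial carriers Slc25a38 (glycine, log2 fold change 0.61 ± 0.137, adjusted p = 2.62e-04) and Slc25a44 (branched-chain amino acids, log2 fold change 0.45 ± 0.0765, adjusted p = 5.25e-06), the mitochondrial serine carrier Sfxn1 (log2 fold change 0.20 ± 0.0524, adjusted p = 0.00132) and the lysosomal cystine exporter Ctns (log2 fold change 0.43 ± 0.0768, adjusted p = 1.33e-05). Those lower were the mitochondrial aspartate-glutamate carrier Slc25a12 (log2 fold change -0.35 ± 0.0588, adjusted p = 3.63e-06), Sfxn3 (log2 fold change -0.23 ± 0.0705, adjusted p = 0.00515) and the lysosomal cysteine importer Mfsd12 (log2 fold change -0.29 ± 0.0964, adjusted p = 0.00935). The median log2 fold change was -0.02 over these 18 genes, 0.40 over the 28 tested members, 0.27 over the 27 of them that are carriers (without Slc7a6os) and -0.0043 over all genes tested.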

How the data were processed

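RNA was measured in 3 DMSO and 3 SD70 samples of Lewis cells. According to the paper's methods, the authors aligned clean BGISEQ-500 reads to GRCm38.p6 with HISAT. The submitters' processing notes list StringTie 1.3.3b and the build mm8 without a role, and the counting tool is not given in the sources used here. The deposited files give each gene an expected count, which is not normalized, and a value that the authors headed only as expression and that was read as FPKM. Over 9263 genes, count divided by this value and by the total count gave nearly the same length in every sample (median coefficient of variation 0.719%), and the values summed to 543767 to 558299, unlike TPM. No column of another sample was present.

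Expected counts were rounded. Genes were filtered with filterByExpr, normalized by TMM (factors 0.984 to 1.02) and compared by edgeR's quasi-likelihood test (version 4.0.16, glmQLFTest after a robust glmQLFit) under R 4.3.3, with Benjamini-Hochberg adjustment over all 11552 genes tested. The fold minimum and the level of 0.01 are those of the paper, whose text does not state an adjustment, while here the level was applied to adjusted p-values. Standard errors were derived from the F statistic. With 2.12 to 4.97 chi-square per gene, no samples of a group agreed within sampling noise. Depth was 15276744 to 17060424 counts per sample, so the number of samples limits the precision, and in genes with few counts counting error does too. Samples with the same number, given by the labels, deviated from their group means together over 9623 genes (Pearson r from 0.172 to 0.283, each over 0.1), so the number was treated as a pairing in an alternative. The scripts were tested on simulated data.

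The alternatives were DESeq2's size factors, other filters, the replicate block, leaving out each sample, DESeq2 1.42.0, limma 3.58.1 on log2(FPKM + 1) and log2(FPKM + 0.1), an adjusted p under 0.05 and glmTreat. Members called at 2-fold were given in full, other tested members with at least 100 normalized counts on average by their fold change, and the rest by counts. The members, lists, motifs and ratios were chosen with earlier results of these data known. Positions and promoters are from RefSeq on GRCm38.p6. All 49 members matched its gene table by NCBI Gene identifier.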

Additional observations from a re-analysis of the deposited data

How the results depend on the processing

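The 12 members called higher stood against 3.29% of all genes. There were 8 by glmTreat (against 1.53% of all genes), 10 on log2(FPKM + 1) (against 1.75%), 11 with 10 counts in every sample (against 2.79%), 11 to 12 with each sample left out and 12 under the other alternatives. By glmTreat, which tests for a change beyond 2-fold, Slc1a1 (adjusted p = 0.166), Slc1a5 (1), Slc1a7 (0.0849) and Slc38a2 (0.330) were lost. The replicate block gave 12 called higher and 1 lower, against 3.35% and 2.64% of all genes. Past the adjusted p alone it gave 15 and 5, against 26.3% and 24.8%. It changed no call of a tested member. The call of Slc7a15 was not stable. The number called lower was 0 rather than 1 with 10 counts in every sample (which removes Slc7a15), by DESeq2, by limma on log2(FPKM + 1) and log2(FPKM + 0.1) and by glmTreat, and 0 to 0 with each sample left out. Without a fold minimum, 5 members were lower (24.2% of all genes), against 3 by DESeq2 (21.3%), 8 at an adjusted p under 0.05 (29.5%) and 3 to 5 with each sample left out, where Slc7a15 and Slc38a4 were lost by DESeq2. With samples left out, Slc7a15 was lost each time and Slc38a4 in 5 of the 6, while Slc7a7 passed without DMSO sample 2 (adjusted p = 0.00517) and Slc38a6 without DMSO sample 3 (adjusted p = 0.00864). For Slc7a15 the log2 fold change ranged from -1.13 to -0.37. The creatine transporter Slc6a8 turned its sign without DMSO sample 3 (-0.011), without SD70 sample 3 (-0.034) and on both FPKM scales (-0.016 on each), never past a threshold, and lay between -0.034 and 0.060 when single samples were left out. Over all alternatives of the 28 tested members, 17 values lost their call and 396 kept their side of the threshold with the same direction. The 396 include values of members that were never called. An adjusted p under 0.05 could not end a call made at 0.01, and glmTreat could not add a gene under 2-fold. Of the 17, 10 were of Slc7a15, and the rest were of Slc1a1, Slc1a5, Slc1a7 and Slc38a2. The cause of these differences was not tested. Slc1a1, Slc7a3, Slc7a4 and Slc7a15 had fewer than 30 counts in every sample.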
